A study of Macaca mulatta with 33 samples.

Results

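Liver RNA was compared between young macaques that were all weaned to a western-style diet (WSD) and differed in what their mothers ate. The comparison used 13 of the 33 liver libraries of the study, 7 from animals labelled WSD/WSD and 6 from animals labelled CD/WSD, where the first diet is the mother's and the second is the diet after weaning. Members were chosen by these labels alone, each library being matched to its animal by the number in the sample title and the column header. Mothers of the WSD/WSD animals ate the western-style diet through pregnancy and nursing, and mothers of the CD/WSD animals ate a control diet (CD) over the same time. Livers were taken at 3 years of age. Offspring weaned to the control diet, 10 labelled CD/CD and 10 labelled WSD/CD, were used only to ask whether the maternal contrast differed with the diet after weaning. The design text names Japanese macaques and the organism field names rhesus macaque. Sex, relatedness and collection date are not given in the labels used here, and each animal was taken as independent.

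A western-style diet is rich in fat and sugar, and the liver answers such a diet by making, storing and exporting lipid and by adjusting cholesterol and bile acid synthesis. When cholesterol in the cell is low, the transcription factor SREBP2 turns on the enzymes that make it. Insulin acting through SREBP1 favours fatty acid synthesis and represses glucose release, while cytochrome P450 enzymes of the hepatocyte oxidise drugs, steroids and fatty acids. Diet during pregnancy and nursing is studied for effects on the liver that persist in the offspring.

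The animal numbers fell into 2 series, those beginning with 30 and those beginning with 31, which the labels do not explain. Series 30 held 5 WSD/WSD and 3 CD/WSD libraries, and series 31 held 2 and 3. The series separated the libraries: the first principal component carried 39.2% of the variance and had one sign in all series 30 libraries and the other in all series 31 libraries, and 3230 of 12475 genes differed between the series at an adjusted p under 0.05 (limma, Benjamini-Hochberg). Number series was therefore a term in the model. Summed Kupffer cell markers averaged 801 and 900 FPKM in WSD/WSD and CD/WSD of series 30 and 314 and 257 in series 31, and in bulk tissue fewer cells of a type and less RNA per cell cannot be told apart. Hepatocyte markers summed to between 41690 and 59340 FPKM in all 13 libraries. Y-linked genes were expressed in 3 of 3 CD/WSD but 2 of 5 WSD/WSD libraries of series 30, and in 1 of 3 and 1 of 2 of series 31. The mitochondrial share of summed FPKM was 1.82% ± 0.413 (SD, n = 7) in WSD/WSD and 2.39% ± 1.09 (n = 6) in CD/WSD, and an exact permutation within number series gave p = 0.411, two-sided.

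Between the maternal diets 1 gene passed the threshold in these livers. CYP2C19, a cytochrome P450 that in humans oxidises many drugs, rose in WSD/WSD, and no gene fell. It was the only gene of 12475 with an adjusted p under 0.05, or 0.00802% of those tested. Without adjustment 483 genes (3.87%) had p under 0.05, 335 higher (2.69%) and 148 lower (1.19%) in WSD/WSD. On the deposited scale 63% of all fold changes were positive with a median of 0.05 on the log2(FPKM + 1) scale, on which every log2 fold change here is given. This lean towards higher values depended on the scaling: after median-of-ratios scaling 51.9% were positive and the genes with p under 0.05 split into 303 higher and 278 lower, and after quantile normalization 50.1% were positive with a split of 283 and 316. WSD/WSD and CD/WSD values did not overlap at all for 9 genes, 0.0721% of those tested, 6 higher (0.0481%) and 3 lower (0.024%).

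**Figure D1:**
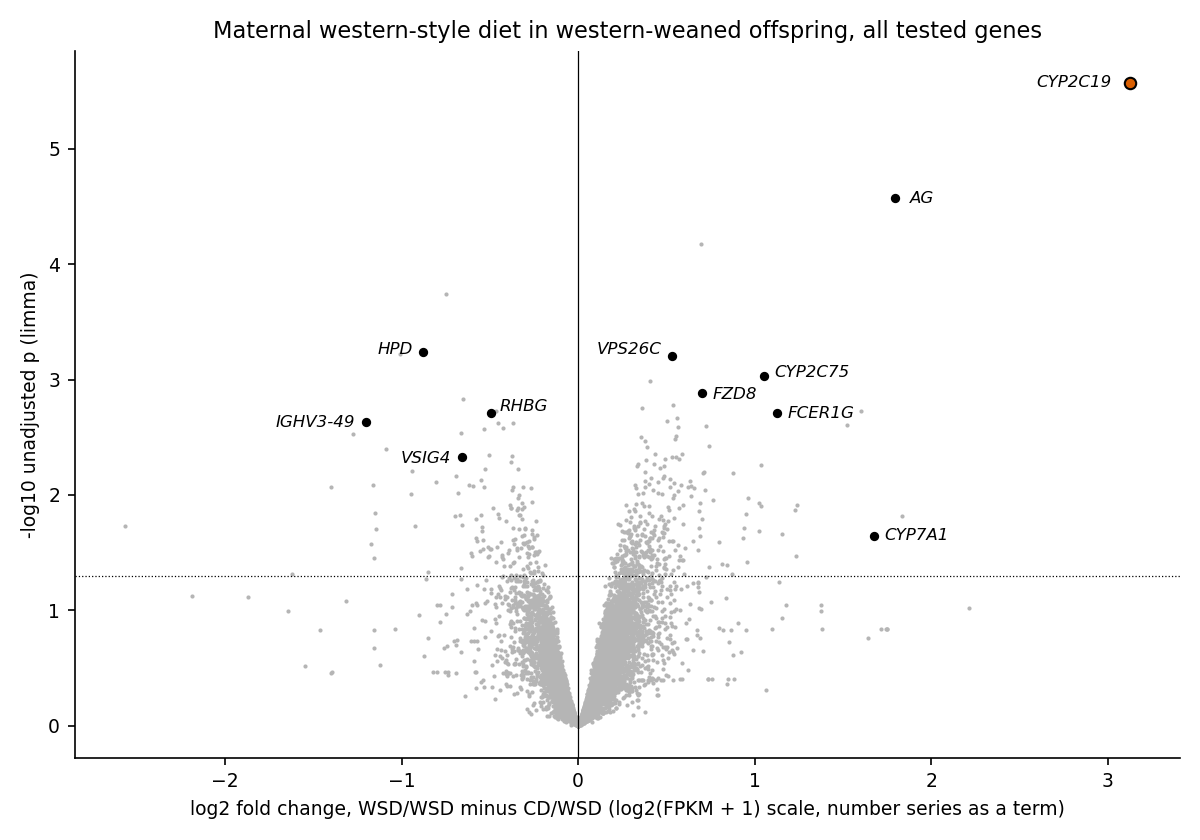
Each point is 1 of 12475 genes, with the log2 fold change of WSD/WSD (n = 7) minus CD/WSD (n = 6) on the horizontal axis and -log10 of the unadjusted limma p on the vertical axis; the dotted line marks an unadjusted p of 0.05. CYP2C19, in orange at 3.12, is the only gene past the adjusted threshold, and AG at 1.80 comes next by p among genes with a symbol.

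CYP2C19 was low in every CD/WSD liver and spread over a wide range in WSD/WSD livers. The lowest, median and highest values were 7.97, 30.2 and 72.3 FPKM in WSD/WSD and 1.44, 2.10 and 8.03 in CD/WSD. Only the lowest WSD/WSD library, replicate 5, reached down to the highest CD/WSD library, replicate 4; every other WSD/WSD value lay above all CD/WSD values. Group means were 33.4 ± 23.02 (SD, n = 7) and 3.08 ± 2.50 FPKM (n = 6), a log2 fold change of 3.12 ± 0.41 (SE) with an adjusted p of 0.0335 (limma), and 7 of 7 WSD/WSD libraries were above the CD/WSD mean of their own series. The difference had much the same size in both series, 3.01 ± 0.55 in series 30 and 3.30 ± 0.68 in series 31. With Y-linked expression as a covariate it was 3.32 with an adjusted p of 0.0243. The call rested on few libraries: the adjusted p lay between 0.00852 and 0.169 when each library was left out, and it missed the threshold without CD/WSD replicate 1, 2, 3, 5 or 6 (adjusted p 0.124, 0.169, 0.167, 0.134 and 0.0968) and without WSD/WSD replicate 3, 4, 6 or 7 (0.0752, 0.102, 0.094 and 0.0821), while the fold change stayed between 2.92 and 3.32. It also missed the threshold after median-of-ratios scaling (0.101) and quantile normalization (0.110).

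Neighbouring members of the same P450 family did not all follow CYP2C19. CYP2C75, a macaque enzyme of this family, ran from 426 over a median of 789 to 1078 FPKM in WSD/WSD and from 211 over 387 to 505 in CD/WSD. Its log2 fold change was 1.05 ± 0.25 (SE) with 7 of 7 libraries above the CD/WSD mean of their series. The unadjusted p was 0.000936 (limma), but the adjusted p was 0.987. CYP2C76 had a log2 fold change of 0.51 (unadjusted p = 0.230) and CYP2C93 one of 0.01 (unadjusted p = 0.964). CYP2C19 made up 0.549% to 2.50% of the FPKM summed over these 4 genes in WSD/WSD and 0.0984% to 0.401% in CD/WSD, ranges that do not overlap. In the RefSeq annotation of assembly T2T-MMU8v2.0 CYP2C18 carries both CYP2C19 and CYP2C75 as synonyms, so close copies could share reads and the names of single members are uncertain.

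**Figure D2:**
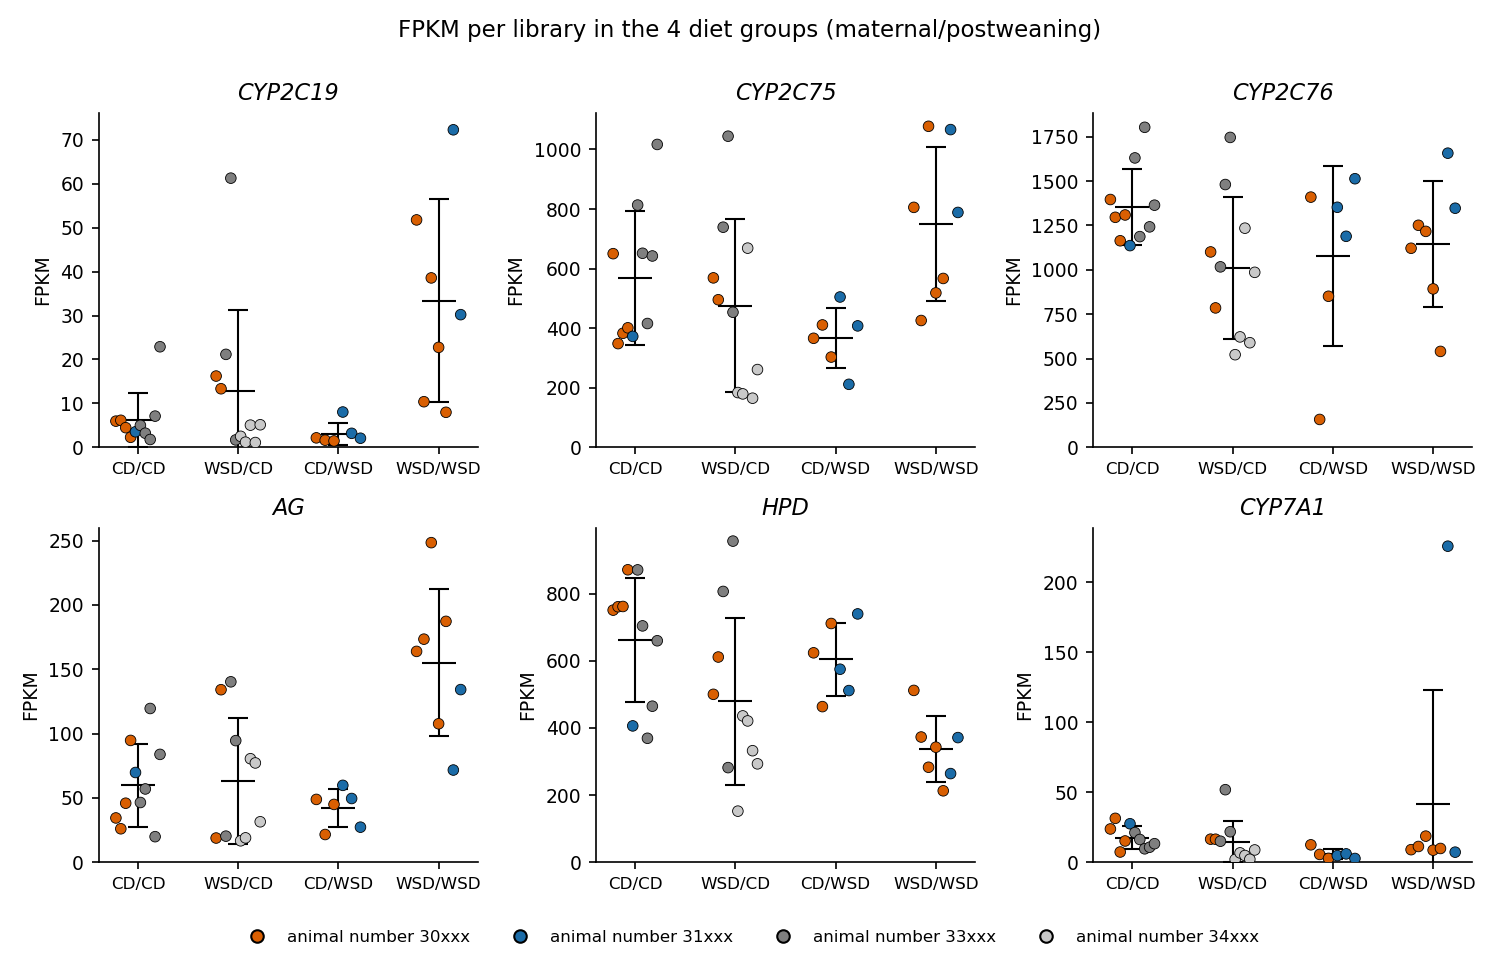
FPKM of 6 genes in every library of the 4 groups, coloured by the leading digits of the animal number, with bars at the mean ± SD; n = 7 WSD/WSD, 6 CD/WSD and 10 in each control-weaned group. CYP2C19 reaches 72.3 in WSD/WSD and at most 8.03 in CD/WSD, the AG values of these groups do not overlap, and the mean of CYP7A1 in WSD/WSD is set by 1 library at 226.

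Behind CYP2C19 the smallest p belonged to AG, listed in the RefSeq table as a synonym of MAMU-AG, a class I molecule of the major histocompatibility complex. Its values ran from 71.6 over a median of 164 to 248 FPKM in WSD/WSD and from 21.5 over 46.8 to 59.7 in CD/WSD. Every WSD/WSD library was above every CD/WSD library. The log2 fold change was 1.80 ± 0.29 (SE) with an adjusted p of 0.167, so the gene did not pass; it passed only with sample weights (adjusted p = 0.0282). Other class I genes showed smaller values: MAMU-E had a log2 fold change of 0.34 (unadjusted p = 0.0187), MAMU-A one of 0.10 and MAMU-F one of 0.06, and reads could be shared between such copies.

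Of the genes with a symbol and at least 1 FPKM in the higher group, a further 7 of the 12 with the smallest p among those higher in WSD/WSD each had an adjusted p of 0.987 and are given as values. VPS26C, a subunit of the retriever complex that recycles membrane proteins, ran from 5.63 to 9.47 FPKM in WSD/WSD and from 3.61 to 5.59 in CD/WSD without overlap. FZD8, a Wnt receptor, had a median of 17.2 FPKM against 9.45, and overlapped in 1 CD/WSD library. FOSL2, a partner in the AP-1 transcription factor, averaged 4.47 ± 1.05 against 2.65 ± 0.681 FPKM. FCER1G, the signalling chain of Fc receptors on myeloid cells, was listed at 0 in 3 CD/WSD libraries and 1 WSD/WSD library, all of series 31, and reached 21.8 in WSD/WSD and 9.05 in CD/WSD. PAPLN, an extracellular matrix protein, PPDPF and C16H17orf49 had log2 fold changes of 0.57, 0.55 and 0.54. Across the 12 named genes on this side, all 12 had a positive fold change in both number series and 10 had all 7 WSD/WSD libraries above the CD/WSD mean of their series, as selection by p favours.

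Among the genes lower in WSD/WSD none passed. The smallest p, with an adjusted p of 0.561, belonged to a gene without a symbol that averaged 0.929 FPKM in WSD/WSD and 2.32 in CD/WSD. Among genes with a symbol and at least 1 FPKM in the higher group, the 12 with the smallest p each had an adjusted p of 0.987. HPD, which carries out the second step of tyrosine breakdown, ran from 213 over 343 to 512 FPKM in WSD/WSD and from 463 over 599 to 740 in CD/WSD. Only WSD/WSD replicate 1 entered the CD/WSD range, and the log2 fold change was -0.88 ± 0.20 (SE), -0.84 in series 30 and -0.94 in series 31. NDUFA6, a subunit of respiratory complex I, averaged 21.03 ± 3.19 against 31.5 ± 7.17 FPKM, and DDT, an enzyme related to the cytokine MIF, 343 ± 47.3 against 481 ± 111. BBIP1, a part of the BBSome that moves cargo into cilia, and CIBAR1, another cilium protein, had log2 fold changes of -0.65 and -0.53. CHAD, a leucine-rich matrix protein, averaged 13.4 against 22.2 FPKM, and VEPH1 0.591 against 1.18. IGHV3-49, an antibody heavy chain segment, was listed at 0 in 4 of 7 WSD/WSD libraries and lay between 0.448 and 3.41 FPKM in CD/WSD. ZNF181 and SMCO3 had log2 fold changes of -0.46 and -0.37. Among the genes whose groups did not overlap, named here after their values were seen, ZNF700 averaged 9.67 against 12.8 FPKM, while STBD1, which binds glycogen, averaged 212 against 156 and TYSND1, a peroxisomal protease, 8.08 against 5.09; each had an adjusted p of 0.987.

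**Figure D3:**
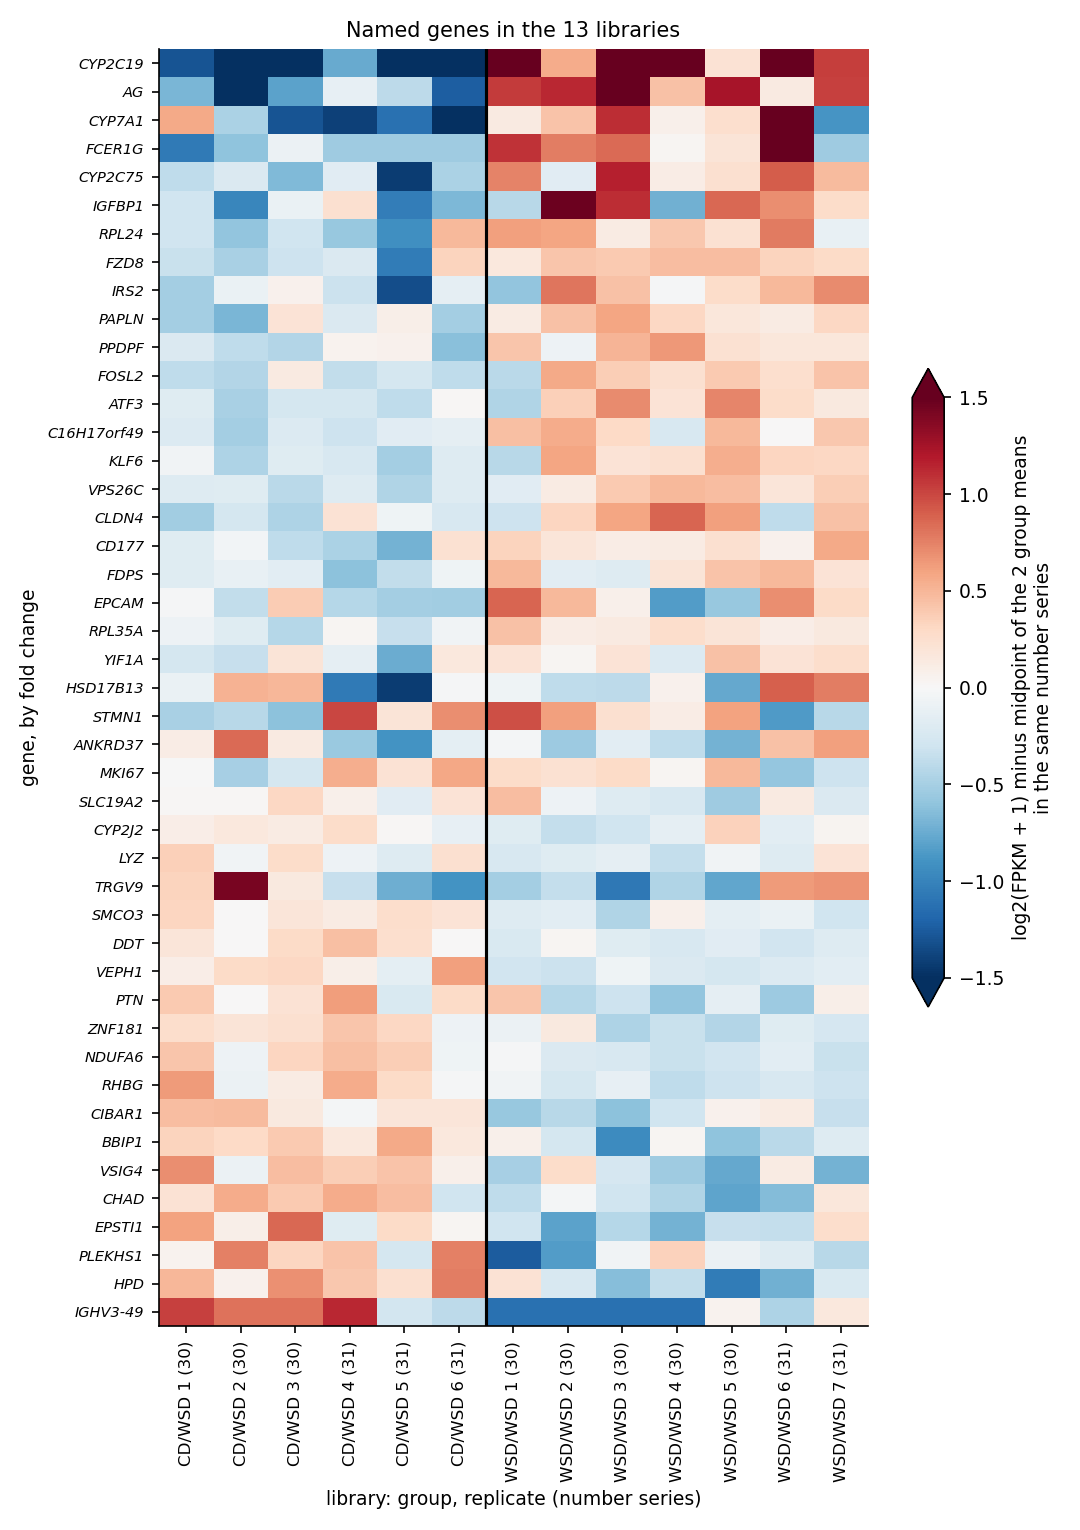
Rows are 45 named genes ordered by fold change and columns the 13 libraries, with the number series in brackets; colour is log2(FPKM + 1) minus the midpoint of both group means in the same series, with colours saturating at 1.5. CYP2C19 and AG separate the groups most clearly, and the genes in the middle, such as STMN1 and HSD17B13, take opposite colours in series 30 and series 31.

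Genes of cholesterol synthesis and uptake leaned towards higher values in WSD/WSD, although none passed the test. Of 21 tested, 20 had a positive fold change and 4 had an unadjusted p under 0.05, all higher, with a median log2 fold change of 0.41. Over all genes tested 63% were positive, 2.69% were higher and 1.19% lower at an unadjusted p under 0.05, and the median was 0.05; each list below is to be read against these shares. The 4 members became 2 without CD/WSD replicate 1 or 5 or WSD/WSD replicate 7, and 7 without WSD/WSD replicate 3. They became 2 with the mitochondrial share as a covariate. Without the 3 libraries of highest mitochondrial share, a set chosen after seeing the data, 1 was left and 18 of 21 were positive. All 3 were of series 31 (CD/WSD replicates 4 and 5 and WSD/WSD replicate 6), so that fit rested mainly on series 30. FDPS, which makes farnesyl diphosphate, averaged 36.6 ± 8.08 against 26.7 ± 3.36 FPKM. IDI1, an enzyme of the isoprenoid steps, was named after its values were seen and averaged 7.33 against 4.65 FPKM, a log2 fold change of 0.45. The list's median was 0.30 in series 30 and 0.34 in series 31, and 0.36 after median-of-ratios scaling. It was 0.24 without WSD/WSD replicate 5, in which the median member stood 1.06 above the CD/WSD mean of its series, and 0.29 with the mitochondrial share as a covariate.

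Fatty acid synthesis did not share one direction across the number series. Of 21 lipogenesis genes, 18 had a positive fold change with a median of 0.19. Within series 30 the median was -0.05, but within series 31 it was 0.55. Without the 3 libraries of highest mitochondrial share 9 of 21 were positive. All 3 were of series 31, so that fit is not a separate check on the difference between the series. The median was 0.10 without CD/WSD replicate 5 and 0.32 without CD/WSD replicate 3. INSIG1, which holds SREBP proteins back in the endoplasmic reticulum, was the only member with an unadjusted p under 0.05 and averaged 354 against 201 FPKM. FASN, the fatty acid synthase, had fold changes of -0.71 in series 30 and 1.47 in series 31, and SCD, which desaturates stearate, -0.62 and 0.90. Lipid droplet genes had 13 of 14 positive values with a median of 0.18 and no unadjusted p under 0.05; the median was 0.18 in series 30 and -0.05 in series 31. It was 0.08 without CD/WSD replicate 3, 0.09 without WSD/WSD replicate 5 and 0.11 without CD/WSD replicate 2 or 5. APOA4, an apolipoprotein of triglyceride-rich particles named after its values were seen, averaged 155 against 40.4 FPKM with a log2 fold change of 1.83 ± 0.66 (SE) and an adjusted p of 0.987; WSD/WSD replicate 5, at 594 FPKM, set much of that mean.

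Bile acid synthesis showed 1 large difference whose size rested on 1 liver. CYP7A1, the rate-limiting enzyme of bile acid synthesis, ran from 7.15 over a median of 9.78 to 226 FPKM in WSD/WSD and from 2.64 over 5.11 to 12.4 in CD/WSD. WSD/WSD replicate 6 held the highest value, and the other 6 libraries of its group were between 7.15 and 18.6. All 7 WSD/WSD libraries were above the CD/WSD mean of their own series. The log2 fold change was 1.67 ± 0.65 (SE), 0.80 in series 30 and 3.04 in series 31, with an adjusted p of 0.987, and it was 0.75 without WSD/WSD replicate 6. Of 15 bile acid genes 10 had positive values, a share of 66.7% beside 63% of all genes, with medians of -0.25 in series 30 and 0.60 in series 31. Over all 13 libraries the median was 0.14; it was -0.03 without CD/WSD replicate 5, 0.01 without WSD/WSD replicate 6, 0.06 without CD/WSD replicate 4, 0.07 without WSD/WSD replicate 7, 0.22 without CD/WSD replicate 3 and 0.24 without CD/WSD replicate 6. Among 15 tested drug-metabolising P450 genes and their regulators 11 were positive with a median of 0.14. Only CYP2C19 of these had an unadjusted p under 0.05, while CYP2C75 (unadjusted p = 0.000936, limma) was not in the list. CYP2J2, an epoxygenase of arachidonic acid, averaged 69.0 ± 12.4 against 77.9 ± 8.01 FPKM.

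Insulin and insulin-like growth factor genes had 3 of 25 members with an unadjusted p under 0.05, all higher in WSD/WSD, and a median of 0.10; 2.69% of all genes were higher at that p. The count was 1 without WSD/WSD replicate 7, and the median was 0.03 without CD/WSD replicate 5 and 0.15 without CD/WSD replicate 6. IRS2, an adaptor of the insulin receptor, averaged 23.1 ± 7.503 against 13.3 ± 6.20 FPKM with a log2 fold change of 0.69. IGFBP1, a binding protein that insulin represses, ran from 40.9 over 111 to 190 FPKM in WSD/WSD and from 32.9 over 48.9 to 81.1 in CD/WSD, and these groups overlapped in part. Both signs turned within series 30 once Y-linked expression was a covariate, to -0.13 for IRS2 and -0.12 for IGFBP1. G6PC, which releases glucose from the liver and was named after its values were seen, averaged 75.7 against 40.8 FPKM, and IGF1, the circulating growth factor, 737 against 1030.0; each had an adjusted p of 0.987.

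Genes of the immediate early and heat shock responses, which answer signals and tissue handling within minutes, had positive values in 19 of 22, beside 63% of all genes, and 5 had an unadjusted p under 0.05, all higher. That count was between 3 and 5 when each library was left out, and it was 3 without CD/WSD replicate 2, 3 or 6 or WSD/WSD replicate 2, 4, 5, 6 or 7. The median was 0.18, with 0.15 in series 30 and 0.30 in series 31, and it was 0.09 without WSD/WSD replicate 7 and 0.10 without CD/WSD replicate 5. KLF6, a zinc finger transcription factor, ran from 17.5 over 27.5 to 36.4 FPKM in WSD/WSD and from 11.4 over 15.7 to 22.9 in CD/WSD. ATF3, a stress-induced transcription factor, averaged 2.09 ± 0.858 against 1.02 ± 0.229, and JUN, named after its values were seen, 37.5 against 23.1. Genes of protein folding and translation had small positive medians: endoplasmic reticulum stress genes had 20 of 22 positive and a median of 0.19 with no unadjusted p under 0.05, and ribosomal protein genes 37 of 52 positive, 71.2% beside 63% of all genes, 6 at an unadjusted p under 0.05 and a median of 0.09. Without WSD/WSD replicate 7 the median of the endoplasmic reticulum stress genes was 0.08, and for ribosomal genes it was 0.02 without CD/WSD replicate 5, 0.05 without WSD/WSD replicate 1 and 0.06 without CD/WSD replicate 3. After median-of-ratios scaling 30 of the 52 ribosomal genes were positive, 3 had an unadjusted p under 0.05 and the median was 0.04. RPL24 averaged 9.91 ± 2.61 against 6.01 ± 3.01 FPKM and RPL35A 14.5 ± 1.22 against 11.2 ± 1.69, both coding for proteins of the large ribosomal subunit. Respiratory chain and ATP synthase genes of the nucleus leaned the other way, with 21 of 63 positive, 4 lower and 1 higher at an unadjusted p under 0.05 and a median of -0.09; after median-of-ratios scaling 9 were lower and the median was -0.13. The median was -0.04 without WSD/WSD replicate 4, and without CD/WSD replicate 5 it was -0.13 with 10 positive and 8 lower. COX7C of complex IV, named after its values were seen, averaged 469 against 659 FPKM.

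**Figure D4:**
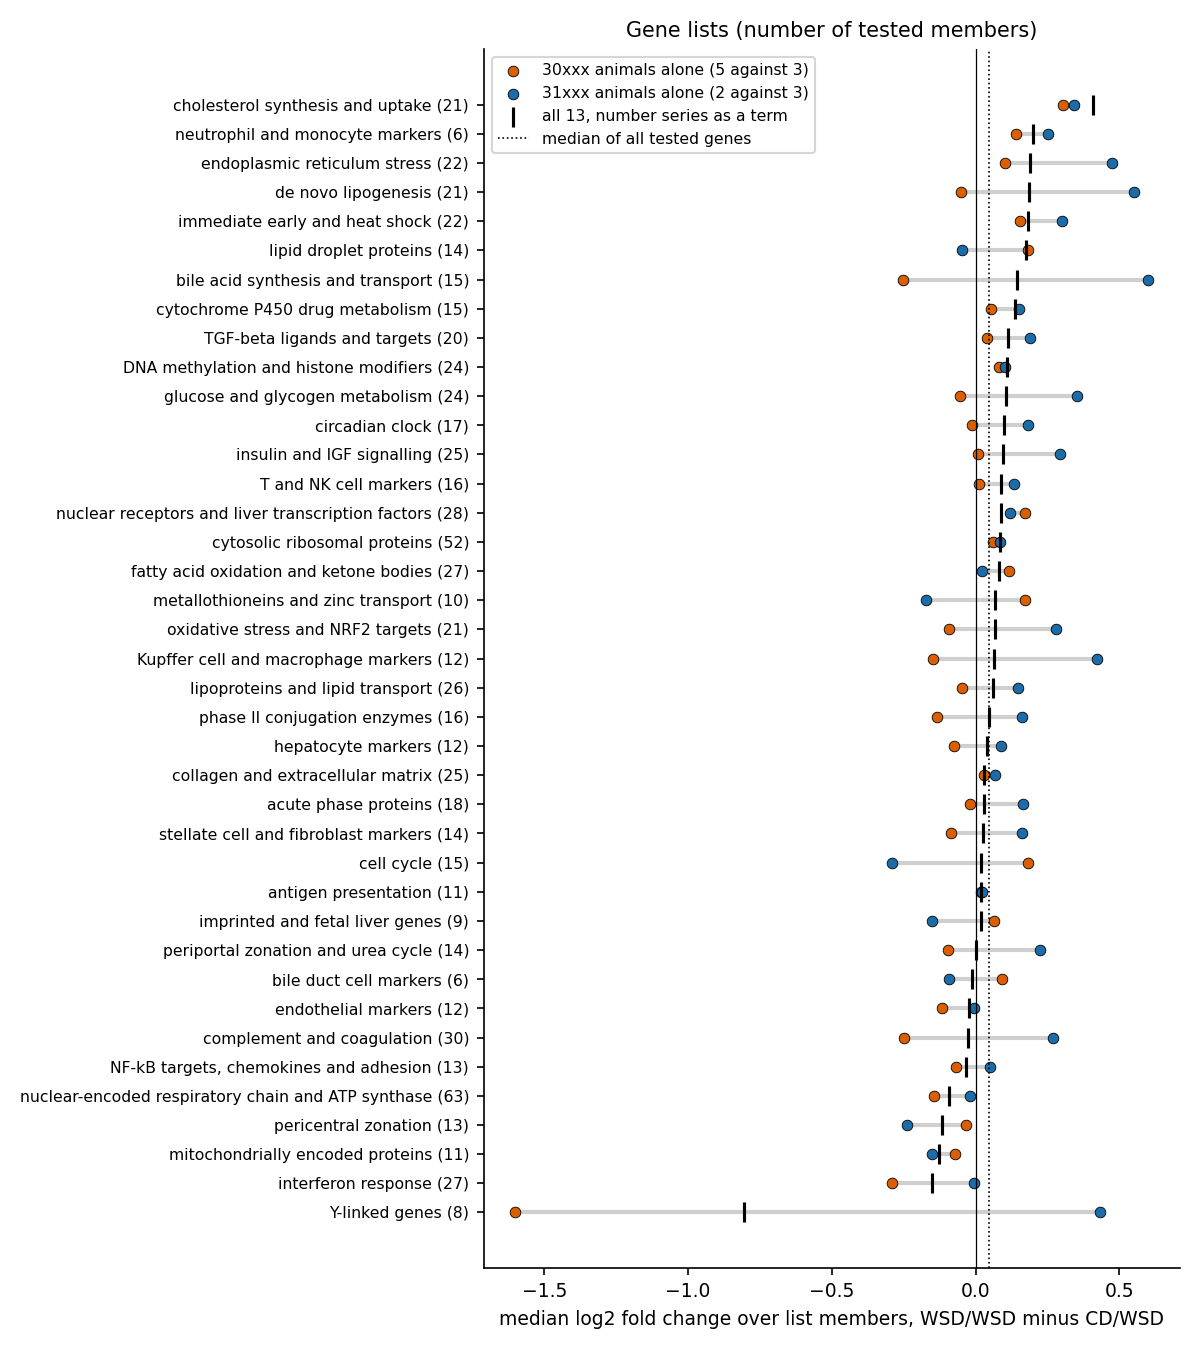
Median log2 fold change of WSD/WSD minus CD/WSD over the tested members of each gene list with at least 5, for the 5 against 3 libraries of series 30 (orange), the 2 against 3 of series 31 (blue) and all 13 (black bars); the dotted line is the median of all genes, 0.05. Cholesterol genes stand at 0.41, lipogenesis and bile acid genes lie on opposite sides of 0 in series 30 and series 31, and Y-linked genes reach -1.60 in series 30.

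Markers of other liver cells had no member past the adjusted threshold. Neutrophil and monocyte markers had 5 of 6 positive with a median of 0.20, 0.14 in series 30 and 0.25 in series 31, and endothelial markers had 9 of 12 negative with a median of -0.02. VSIG4, a complement receptor of Kupffer cells, averaged 32.9 ± 10.9 FPKM in WSD/WSD against 48.6 ± 14.7 in CD/WSD with a log2 fold change of -0.66, and it was 1 of 12 tested Kupffer cell markers with an unadjusted p under 0.05; 8 of the 12 were positive. CD177, a neutrophil surface protein, averaged 14.2 ± 8.03 against 7.72 ± 7.12 FPKM. Its values split by number series, at or below 3.12 in series 31 and at or above 12.3 in series 30. LYZ, lysozyme, had a log2 fold change of -0.23 that was 0.02 within series 31 and 0.04 without the term for number series. Bile duct markers had 2 of 6 positive and 4 negative, with a median of -0.01. The 2 positive members were CLDN4, a tight junction protein, and EPCAM, an epithelial adhesion protein. CLDN4 averaged 0.882 ± 0.611 against 0.218 ± 0.179 FPKM, with log2 fold changes of 0.83 in series 30 and 0.06 in series 31. EPCAM averaged 6.58 ± 3.36 against 4.62 ± 1.01, with 0.01 in series 30 and 0.97 in series 31. RHBG, an ammonium transporter of pericentral hepatocytes, averaged 0.260 ± 0.205 against 0.944 ± 0.539 FPKM. Interferon-induced genes had 20 of 27 negative values with a median of -0.15, -0.29 in series 30 and -0.00 in series 31, and none had an unadjusted p under 0.05. Without CD/WSD replicate 3 the median was -0.05 with 12 of 27 positive, and without WSD/WSD replicate 2 it was -0.09. Leaving out CD/WSD replicate 2 gave -0.18, with 4 lower and 0 higher at an unadjusted p under 0.05 (limma). After median-of-ratios scaling 3 were lower and 0 higher at that p, with a median of -0.20. EPSTI1, an interferon-induced gene outside this list, was named by its p (unadjusted p = 0.00475, limma). Its log2 fold change was -1.04 in series 30 and -0.09 in series 31.

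Whether the maternal contrast differed between the number series was tested next, because the series held different shares of each group. No gene passed at an adjusted p under 0.05 (0% of 12475) and 749 genes, 6% of those tested, had an unadjusted p under 0.05. STMN1, which destabilises microtubules and is abundant in dividing cells, lay between 4.08 and 8.18 FPKM in WSD/WSD and between 2.07 and 2.54 in CD/WSD of series 30, and at 1.91 and 2.92 against 4.96 to 9.45 in series 31. Groups did not overlap within either series and their order was opposite, as selection by the p of this test favours. The log2 fold changes were 1.01 ± 0.21 (SE) and -1.26 ± 0.27, a difference of -2.27 with an adjusted p of 0.195. MKI67, the proliferation marker Ki-67, had fold changes of 0.52 and -0.90 with an adjusted p of 0.215. Of 15 tested cell cycle genes 11 were positive in series 30 and 3 in series 31. Over all 12475 genes 6698 were positive in series 30 and 7896 in series 31. TRGV9, a segment of the gamma T cell receptor, had -1.27 and 1.32 (adjusted p = 0.195), ANKRD37, which responds to low oxygen, -0.73 and 1.06 (0.641), and HSD17B13, a lipid droplet enzyme linked to fatty liver in humans, -0.62 and 1.66 (0.671). Series 31 held only 2 WSD/WSD libraries, and without CD/WSD replicate 6 the count of called genes was 71, without WSD/WSD replicate 7 it was 8, without WSD/WSD replicate 6 it was 3 and without CD/WSD replicate 2 or 3 it was 1.

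**Figure D5:**
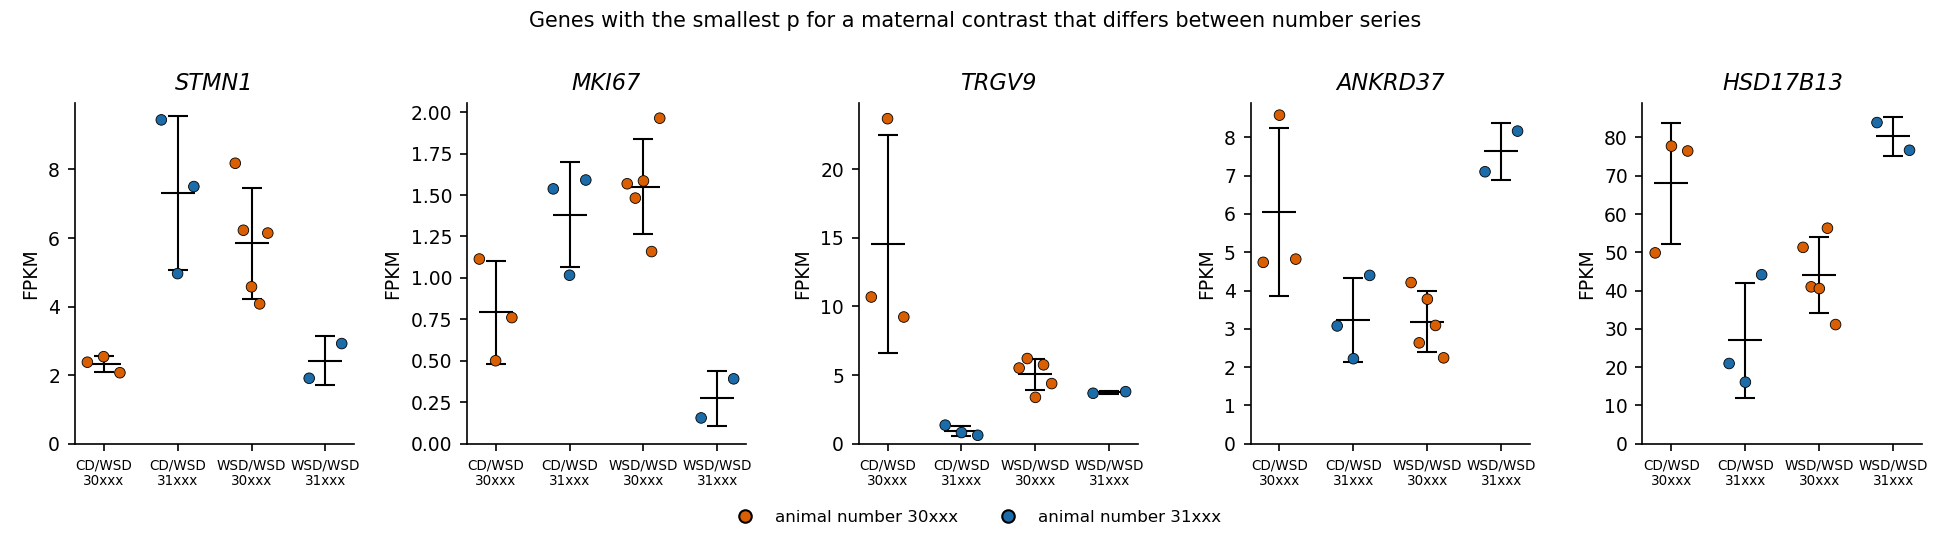
FPKM per library of the 5 genes with the smallest p for a maternal contrast that differs between the number series, split by group and series, with bars at the mean ± SD (n = 3 and 3 CD/WSD, 5 and 2 WSD/WSD). For each gene the order of the groups is opposite in series 30 and series 31; STMN1 is at most 2.54 in CD/WSD of series 30 and at least 4.96 in CD/WSD of series 31.

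The same maternal contrast in offspring weaned to the control diet gave a second test, in which the contrast in western-weaned animals was set against it in 1 model of all 33 libraries. No gene passed (0% of 12475), and 738 genes, 5.92%, had an unadjusted p under 0.05. The 5 libraries of series 34, all WSD/CD, were fitted by their own series term in this model. The control-weaned contrast therefore rested on 2 WSD/CD libraries of series 30 and 3 of series 33. Mitochondrial shares in those libraries ran from 1.43% to 6.94%. CYP2C19 averaged 12.9 ± 18.4 FPKM in WSD/CD and 6.23 ± 6.10 in CD/CD (n = 10 each). That WSD/CD mean includes the 5 libraries of series 34, at 1.08 to 5.13 FPKM. The WSD/CD libraries on which the contrast rested ran from 1.68 to 61.3 FPKM. With number series as a term the log2 fold change was 1.43 ± 0.53 (SE). The CYP2C19 contrast was 1.63 ± 0.75 larger in western-weaned animals (limma, unadjusted p = 0.0381, adjusted p = 0.763). So its rise after maternal western-style diet was not shown to differ between the diets after weaning. AG averaged 63.2 ± 48.7 and 59.7 ± 32.01 FPKM over all 10 WSD/CD and all 10 CD/CD libraries. Its contrasts differed by 1.70 ± 0.67 (limma, adjusted p = 0.763). PTN, a secreted growth factor, SLC19A2, a thiamine transporter, and PLEKHS1 had contrasts that were lower in western-weaned than in control-weaned animals, with differences of -1.12, -0.90 and -1.38. YIF1A, a protein of transport between endoplasmic reticulum and Golgi, had a difference of 1.04, and each of these 4 genes had an adjusted p of 0.763. The median over all genes was 0.12 for this difference and 0.00 after median-of-ratios scaling, so single values are to be read against that shift. Series 34 held WSD/CD animals only and series 31 none, and within series 30 alone, with 2 WSD/CD libraries, 73 of 12531 genes (0.583%) passed, 13 higher and 60 lower.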

How the data were processed

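The labels describe column-purified RNA (Qiagen RNeasy Mini), directional mRNA libraries from a Swift kit and paired reads from a NovaSeq instrument. GSNAP, SAMtools and Cufflinks appear in the submitters' processing notes, without settings, and no genome build is named in the sources used here. What the authors deposited is an FPKM matrix, a level scaled to transcript length and to mapped reads, for 34882 genes in 33 libraries; each column was matched to its sample by animal number. FPKM values are not counts and total depth is unknown. Genes with the lowest values gave a rough relative depth between 0.637 and 1.25 of CD/WSD replicate 1, with 0.924 ± 0.265 (SD) in WSD/WSD and 0.953 ± 0.139 in CD/WSD (exact permutation p = 0.895). The code 999999999 was taken as missing, and the 15 genes that hold it, ALB among them, were left out.

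The scale tested was log2(FPKM + 1). Fits used limma 3.58.1 under R 4.3.3 (intensity trend, Benjamini-Hochberg over all genes, threshold 0.05), with maternal diet and number series as terms and 10 residual degrees of freedom. Genes needed a mean of at least 0.5 FPKM over the 13 libraries, which left 12475; 1277 of them lacked a symbol of their own, and 328 were named from a table of Ensembl identifiers. Differences between the contrasts were tested as interactions, with 9 degrees of freedom for number series and 26 for postweaning diet, where number series with 4 levels was a term. A pseudocount of 1 understates changes of low genes. Mitochondrial share, genes detected, Y-linked level and relative depth were compared by exact permutation within number series (560 arrangements, smallest p 0.00179), and their p values adjusted over 4 tests were at least 0.864. The per-gene fits were first checked on data simulated with known changes.

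The comparison, the 41 gene lists and the tests were chosen with earlier results of these data known, so lists are given by counts and medians with no test. Named genes had their own symbol and at least 1 FPKM in the higher group, a level not required of list members (RHBG, CLDN4). They are the 12 smallest p in each direction (called genes first), 2 members of each of the 8 lists with the highest share of members called or at an unadjusted p under 0.05, and the 5 smallest p of each interaction, 47 genes in all, of which a few, like some other genes, are not reported here. Genes outside this rule were named after their values were seen, or for their role. Alternatives were a pseudocount of 0.1, no filter, other scalings, sample weights, robust variances, covariates, other sets of libraries and leaving out each library. No 2 libraries held identical values, and log2 values of pairs correlated between 0.906 and 0.979.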

Additional observations from a re-analysis of the deposited data

Results flagged for a closer look

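A gap test (Dixon, 95% level) looked for a library far from the others of its group. It covered the named genes, the mitochondrial share and the number of genes detected. For normally distributed values chance marks about 1 in 20 groups, a shape not checked for these FPKM values. Of 94 groups 6 (6.38%) were marked, 2 in WSD/WSD and 4 in CD/WSD. CYP7A1 stood apart in WSD/WSD replicate 6 at 226 FPKM, where the others reached at most 18.6, and in CD/WSD replicate 1 at 12.4, where the others reached 5.92. CYP2C19 stood apart in CD/WSD replicate 4 at 8.03 FPKM against at most 3.18. FOSL2 was high in CD/WSD replicate 3 at 4.02 FPKM against at most 2.51. CYP2J2 reached 94.9 FPKM in WSD/WSD replicate 5 against at most 72.7 in the rest, and RPL24 reached 12.02 in CD/WSD replicate 6 against at most 5.37.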

How the results depend on the processing

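The count of genes changed by maternal diet was 1 (CYP2C19) and stayed 1 with a pseudocount of 0.1 or with the Y-linked level as a covariate. It was 0 with no filter on low values (769 genes at an unadjusted p under 0.05), median-of-ratios scaling (581), quantile normalization (599), a robust variance model (470), the mitochondrial share as a covariate (563), no term for number series (486) or series 30 alone (772). It was also 0, in a setting chosen after seeing the data, without the 3 libraries of highest mitochondrial share, all of series 31 (823). It was 2 with sample weights (AG and CYP2C19) and 2 with all 33 libraries and number series (CYP2C19 among them). Without number series in all 33 libraries the 1 gene was not CYP2C19, in series 31 alone it was HAMP, the iron hormone hepcidin, and in series 30 with the Y-linked level, added after seeing the data, it was a gene without a name. Leaving out each library gave 0 to 1 genes. Genes differing between number series numbered 3 with no filter, 4 with sample weights (H4C11, HSD17B13, MKI67 and STMN1), 1 with the mitochondrial share as a covariate (STMN1) and 0 to 71 when each library was left out. Genes differing between postweaning diets numbered 73 within series 30 and 0 under each other alternative run. Signs turned for LYZ (0.038 without number series, in the 13 or in all 33 libraries, and 0.017 in series 31) and, in series 30 with the Y-linked level, for IRS2 (-0.13) and IGFBP1 (-0.12). Causes were not tested. The mitochondrial share differed by -0.51 to -0.095 percentage points when each library was left out. No paired analysis was possible because the labels give no replicate numbers that groups share. Depth is unknown, so no value carries a counting error.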

Other observations

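Several other gene groups had medians near that of all genes, 0.05 on the log2 scale. Collagen and matrix genes had a median log2 fold change of 0.03, acute phase genes 0.03 and urea cycle and periportal genes 0.00. Complement and coagulation genes had -0.03, which joined -0.25 in series 30 and 0.27 in series 31. Farther below the median of all genes lay pericentral genes at -0.12, with 4 of 13 positive, and mitochondrially encoded genes at -0.13, with 4 of 11 positive. SAA1, a serum amyloid protein of the acute phase named after its values were seen, averaged 3.17 FPKM in WSD/WSD and 19.95 in CD/WSD, with an adjusted p of 0.987 (limma), and STAT3, which passes on the interleukin-6 signal, 55.1 and 34.7. Of the 483 genes with an unadjusted p under 0.05, 467 had the same sign in both number series, as selection by p favours, beside 47.0% of all genes tested.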
